A study of Mus musculus with 5 samples.

Results

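The transcription factors that give spinal interneurons their identity were examined in the spinal cord of adult mice with and without the long non-coding RNA gene Lhx1os. The set holds 47 genes, taken by symbol, among the 55471 gene identifiers of the deposited count table, and all 47 were found there. They were divided by role into 7 classes: dorsal determinants, dorsal excitatory factors, factors of particular dorsal laminae, birth-order factors, ventral inhibitory factors, ventral excitatory factors, and factors used broadly by cord neurons. The mice were males of the C57BL/6J strain, 3 months old and at rest, and polyadenylated RNA was read from their spinal cord, with 2 libraries of Lhx1os -/- mice (KO) and 3 libraries of wild type mice (WT). The KO allele was made in fertilised eggs: Cas9 with 1 guide RNA cut within the second exon, where a donor oligonucleotide placed a synthetic poly(A) signal and MAZ elements that destabilise the polymerase. The labels give neither the number of founder lines nor the spinal level taken.

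Spinal interneurons arise in the embryo from progenitor domains stacked along the dorsal to ventral axis, and each domain hands its daughter neurons a combination of homeodomain, zinc finger, forkhead and bHLH factors. These factors fix the transmitter (GABA and glycine, or glutamate), the settling position and the axonal targets of the neuron, and a part of them stays on in the adult. Dorsal classes process touch, itch, heat and pain, while the ventral classes V0, V1, V2 and V3 shape the locomotor rhythm. Because the tissue was bulk, fewer cells of a type and less RNA per cell cannot be told apart.

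The libraries held 16384033 and 15973063 counts in KO and 17125606, 19437533 and 16086041 counts in WT. Lhx1os itself had 13 and 11 counts in the KO libraries against 56, 66 and 51 counts in the WT libraries, so KO was lower by a log2 difference of −2.13 with SE 0.28 (adjusted p = 0.0589 in edgeR's quasi-likelihood test, 0.00266 in DESeq2). WT replicate 2 stood apart in genes of sensory neurons of the dorsal root ganglion, which is no part of the cord. Scn10a, a sodium channel gene of pain-sensing neurons, had 0.123 and 0.0625 CPM in KO replicates 1 and 2 and 0.119, 15.6 and 0.123 CPM in WT replicates 1, 2 and 3. Avil reached 10.0 CPM in WT replicate 2 and at most 0.438 CPM elsewhere, and Tmem233 had 106 counts in WT replicate 2 and 0 counts in each other library. Of the 14 genes of the sensory ganglion list, 11 were highest in WT replicate 2, and the other 3 (Prph, Sncg and Isl1) are also made in the cord. Over the whole list the summed level was 168.4 and 144.8 CPM in KO and 156.2, 188.4 and 132.9 CPM in WT. Over the 9 genes that stayed under 1 CPM in the other 4 libraries it was 1.41 and 1.25 CPM in KO and 1.31, 48.1 and 1.72 CPM in WT. The low sums in those 4 libraries follow from how the 9 genes were chosen. Hox genes, which follow position along the cord, also differed between libraries. The 15 caudal ones summed to 118.1 and 206.6 CPM in KO and 107.6, 96.6 and 171.3 CPM in WT. The 15 rostral ones summed to 220.9 and 206.3 CPM in KO and 219.4, 270.0 and 188.3 CPM in WT. Among the caudal ones Hoxc10, a gene of lumbar levels, had 4.78 and 33.3 CPM in KO and 6.01, 5.57 and 17.7 CPM in WT. The spinal level itself was not tested. The 20 pan-neuronal genes summed to 16544 and 16114 CPM in KO and to 16368, 15147 and 14646 CPM in WT, with 16 positive, 4 negative and 0 passing (median log2 fold change 0.07). The counts over all members are given with and without WT replicate 2, as are the members whose direction turned without it.

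Levels of different members were compared as CPM (counts scaled to library size) per kilobase of exon (CPM per kb), averaged over the 5 libraries. Ebf3, an Olf/EBF factor of many differentiating neurons, was highest at 8.79 CPM per kb, followed by the Hox cofactor Pbx3 at 6.995, Prox1 at 5.89, Nfia at 5.74, Ebf1 at 5.70 and Rora at 5.49 CPM per kb. At the low end stood Sp9 at 0.0784, Wt1 at 0.0529, Onecut1 at 0.0475 and Sim1 at 0.0236 CPM per kb. Of the 46 neighbouring pairs in this order, 44 had overlapping ranges over the libraries, so most neighbours did not differ beyond their spread. The broad neuronal factors held 37.0% of the summed level and the birth-order factors 19.5%. The ventral inhibitory and ventral excitatory factors held 5.02% and 3.25%. Members' counts bound what could be tested: 38 of the 47 averaged at least 1 CPM, and 10 had fewer than 100 counts over all libraries together. The test kept 43 members, and Onecut1 (17 counts in all), Sim1 (17), Wt1 (28) and Sp9 (33) were left out for low counts.

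**Figure D1:**
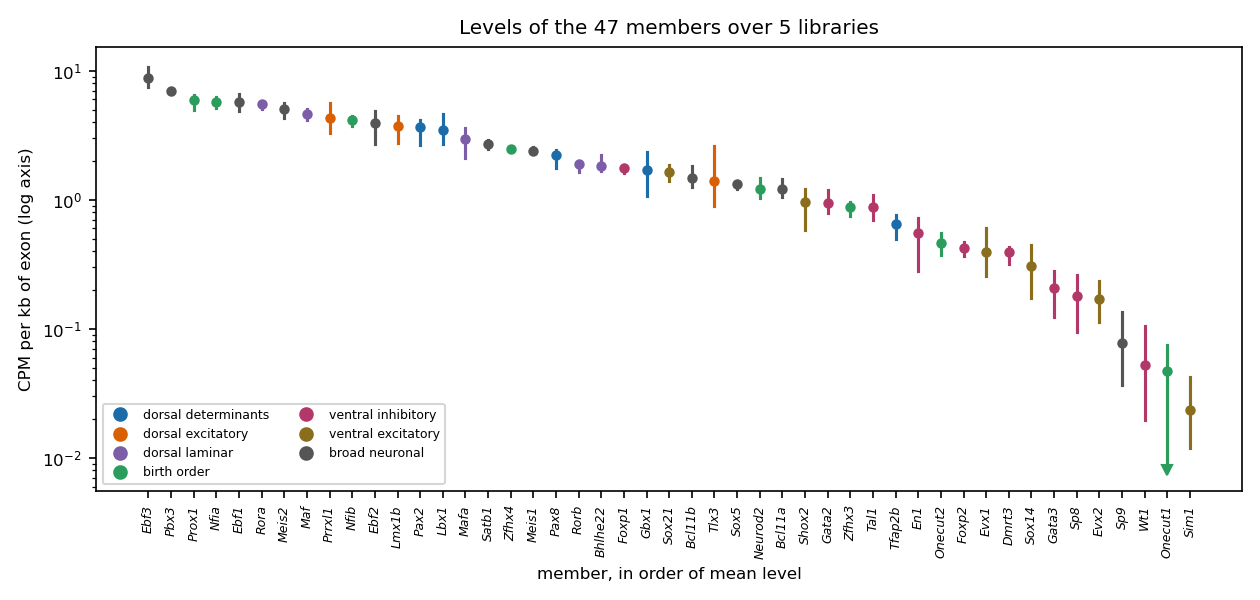
Level of each of the 47 members in CPM per kb of exon on a log axis, in order of the mean, coloured by class. Points are means over the 5 libraries and bars run from the lowest to the highest library; the triangle marks Onecut1, listed at 0 in WT replicate 3. Levels run from 8.79 CPM per kb for Ebf3 to 0.0236 for Sim1.

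The comparison of KO with WT asked whether loss of Lhx1os went with a changed level of any of these factors in the adult cord. None of the 43 members tested passed in either direction (edgeR quasi-likelihood test, Benjamini-Hochberg adjusted p under 0.05 over 16052 genes), where 0.0187% of all genes did. The smallest adjusted p of a member was 0.697, for Tlx3. DESeq2 called 0 of the 36 members to which it gave an adjusted p, against 0.299% of genes, and at an unadjusted p under 0.05 edgeR had 0 members, against 7.57% of all genes (3.49% higher and 4.07% lower). Fitted log2 fold changes (KO over WT) were positive for 17 members and negative for 26, a share of 39.5% positive against 51.3% of all genes, with a median of −0.06 against 0.0044. The direction of that median rested on single libraries: without WT replicate 2 it was 0.04 with 27 members positive (51.6% of all genes were positive), and without KO replicate 1 it was 0.02 with 23 positive. The 10 members that turned sign without WT replicate 2 were Gbx1, Prrxl1, Lmx1b, Mafa, Bhlhe22, Neurod2, Gata3, Ebf3, Bcl11a and Bcl11b, each becoming positive. Leaving out WT replicate 1 moved the median the other way, to −0.09 with 14 members positive. The 3 members that turned sign there were Pax8, Lbx1 and Zfhx4, each becoming negative. Without WT replicate 2, edgeR again passed 0 members, where 0.00629% of all genes passed, and 0 had an unadjusted p under 0.05, against 10.2% of all genes.

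The size of change that these libraries could exclude differed greatly between members. The 95% interval of the fold change, not adjusted for the number of genes, lay within 1.5-fold either way for 30 members and within 2-fold for 37. The intervals of the remaining 6 reached past 2-fold in at least 1 direction, and the members concerned were Tlx3, with its wide spread in WT, and Evx1, Evx2, Sox14, Gata3 and Sp8, with fewer than 100 counts each. The KO and WT values did not overlap for 6 of the 43. Pax2, Tfap2b, Foxp2 and Evx2 were higher in both KO libraries than in every WT library, 4 members or 9.30% against 12.9% of all genes. Tlx3 and Pbx3 were lower, 2 members or 4.65% against 12% of all genes. Both shares lay below those of all genes. Leaving out WT replicate 2 added Zfhx3 and Satb1 to the higher members, 6 of 43 against 21.9% of all genes, and Tlx3 and Pbx3 stayed as the 2 lower ones, against 20% of all genes.

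**Figure D2:**
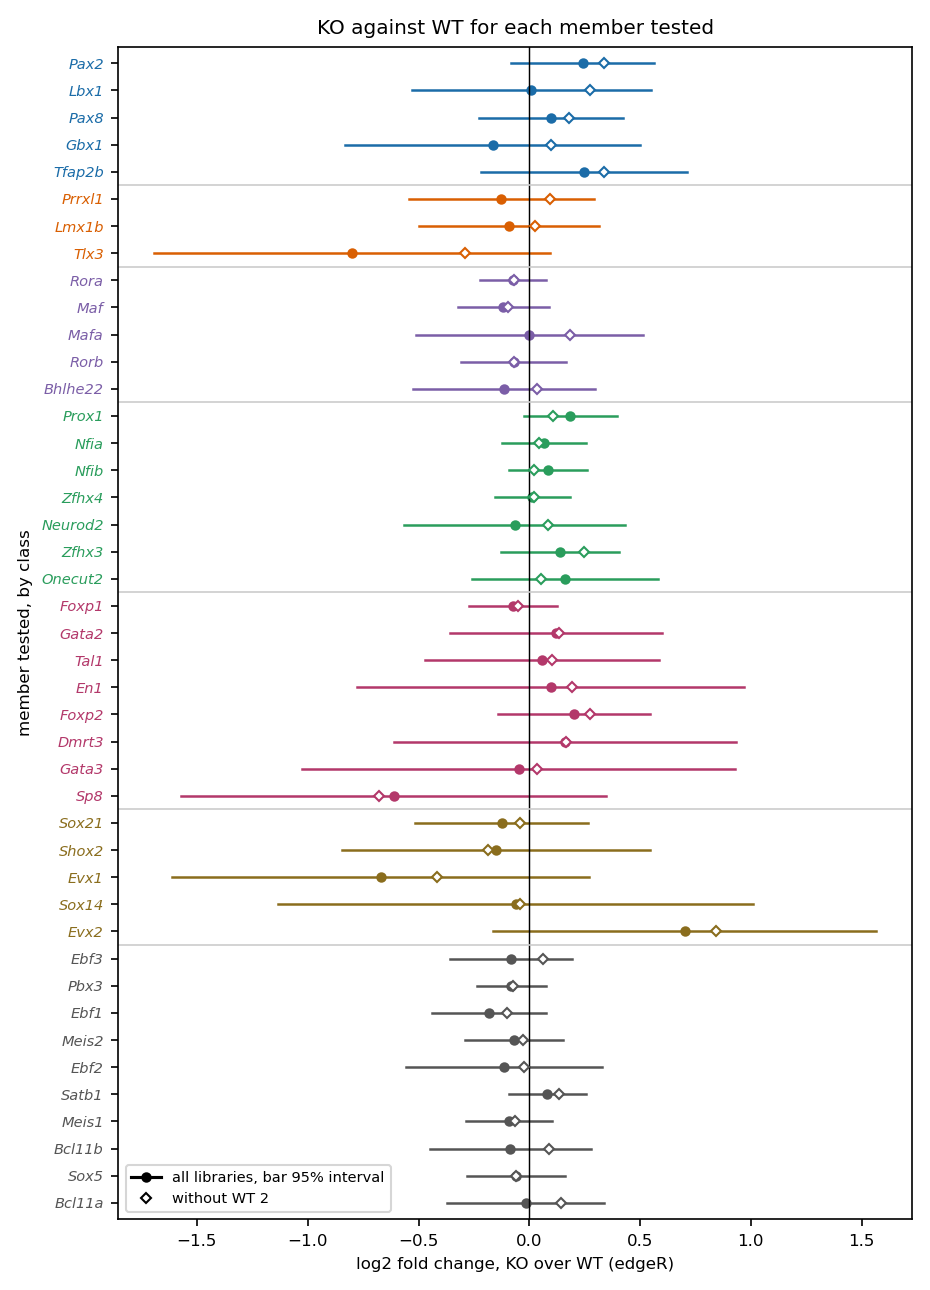
Log2 fold change, KO over WT, of each of the 43 members tested, by class. Filled points are the edgeR estimates over all libraries with bars for the 95% interval, and open diamonds are the estimates without WT replicate 2. Every bar crosses 0, and the widest bars belong to members with few counts and to Tlx3.

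The dorsal determinants decide between inhibitory and excitatory fates in the dorsal horn. Pax2, a paired-box factor of GABAergic and glycinergic neurons (chromosome 19, 44756045 to 44837871 in GRCm38), had 21.1 and 22.4 CPM in KO and 19.99, 20.7 and 14.3 CPM in WT. Both KO values were above all WT values, and WT replicate 3 was the low library. Its log2 fold change was 0.24 (SE 0.15; adjusted p = 0.730, edgeR). It was 0.09 without WT replicate 3, 0.34 without WT replicate 2 and 0.10 with the replicate block. Tfap2b, an AP-2 factor of dorsal inhibitory neurons, had 4.29 and 4.88 CPM in KO and 4.11, 4.29 and 3.14 CPM in WT, a log2 fold change of 0.25 (SE 0.21), or 0.12 without WT replicate 3, and KO replicate 1 exceeded WT replicate 2 by less than the counting error. Lbx1, the homeodomain factor shared by the later-born dorsal classes, had 6.99 and 10.5 CPM in KO and 6.66, 11.4 and 7.82 CPM in WT. The groups overlapped and each held a high and a low library, so the log2 fold change was 0.01 (SE 0.24), and 0.27 (SE 0.22) without WT replicate 2. Pax8, a partner of Pax2, stood at 0.10 (SE 0.15). Gbx1, a homeodomain factor of dorsal inhibitory neurons, stood at −0.17 (SE 0.30), or 0.10 (SE 0.31) without WT replicate 2. Without WT replicate 1, Gbx1 stood at −0.43 and Lbx1 at −0.15. Over the class, 4 of 5 members were on the positive side, or 5 of 5 without WT replicate 2, and 0 passed.

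The dorsal excitatory factors Tlx3, Lmx1b and Prrxl1 act together in glutamatergic neurons of the superficial dorsal horn, and Tlx3 and Prrxl1 are also made by sensory neurons of the dorsal root ganglion. WT replicate 2 was the highest library for both Tlx3 and Lmx1b, though for Lmx1b by only 1.01-fold over WT replicate 3. The sequences ahead of the start sites of these genes are shown. Each is 240 bases from the RefSeq table on GRCm38.p6, 5′ to 3′ on the gene's strand, with capitals on the homeodomain core TAAT or its reverse complement ATTA. For Prrxl1 the window overlaps an annotated exon and is not shown.
Tlx3 (chr11:33203599-33203838, minus strand): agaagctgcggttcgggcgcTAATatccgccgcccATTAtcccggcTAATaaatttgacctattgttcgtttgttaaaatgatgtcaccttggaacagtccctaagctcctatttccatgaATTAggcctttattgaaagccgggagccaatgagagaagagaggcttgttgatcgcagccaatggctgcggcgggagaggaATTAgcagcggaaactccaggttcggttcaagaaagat
Lmx1b (chr2:33641109-33641348, minus strand): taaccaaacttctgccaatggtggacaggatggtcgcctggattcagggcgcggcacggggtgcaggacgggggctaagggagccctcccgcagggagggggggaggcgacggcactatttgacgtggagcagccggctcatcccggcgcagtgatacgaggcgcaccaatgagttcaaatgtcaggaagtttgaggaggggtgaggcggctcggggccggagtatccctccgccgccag
The Tlx3 window held 5 such cores, a number that 5.29% of the 32851 promoter windows in the table reach, while the Lmx1b window held 0, with a median of 1 over all windows. The E-box CAGCTG, a palindrome bound by bHLH factors, was in neither window and in 12.4% of all windows. These letters describe the windows and show no binding.

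Tlx3 (chromosome 11, 33200752 to 33203589) was the member of smallest p. It had 26 and 22 counts in KO and 30, 79 and 30 counts in WT, or 1.59 and 1.38 CPM in KO and 1.79, 4.04 and 1.85 CPM in WT. Both KO libraries were below all WT libraries, yet WT replicate 2 alone stood 2.18-fold above the next library. The log2 fold change was −0.80 (SE 0.40; adjusted p = 0.697, edgeR) with all libraries and −0.29 (SE 0.32; adjusted p = 0.796) without WT replicate 2, the library with sensory ganglion genes. Prrxl1 had 17.8 and 16.1 CPM in KO and 13.7, 23.5 and 18.0 CPM in WT. WT replicate 2 was again highest, and the log2 fold change was −0.13 (SE 0.19), or 0.09 (SE 0.15) without it. Lmx1b, the LIM-homeodomain factor of the trio, had 16.9 and 18.5 CPM in KO and 13.4, 21.6 and 21.4 CPM in WT, where WT replicates 2 and 3 were alike and WT replicate 1 was low. Its log2 fold change was −0.09 (SE 0.18), or 0.02 (SE 0.20) without WT replicate 2. The part of sensory ganglion RNA in these values was not tested beyond leaving out that library.

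**Figure D3:**
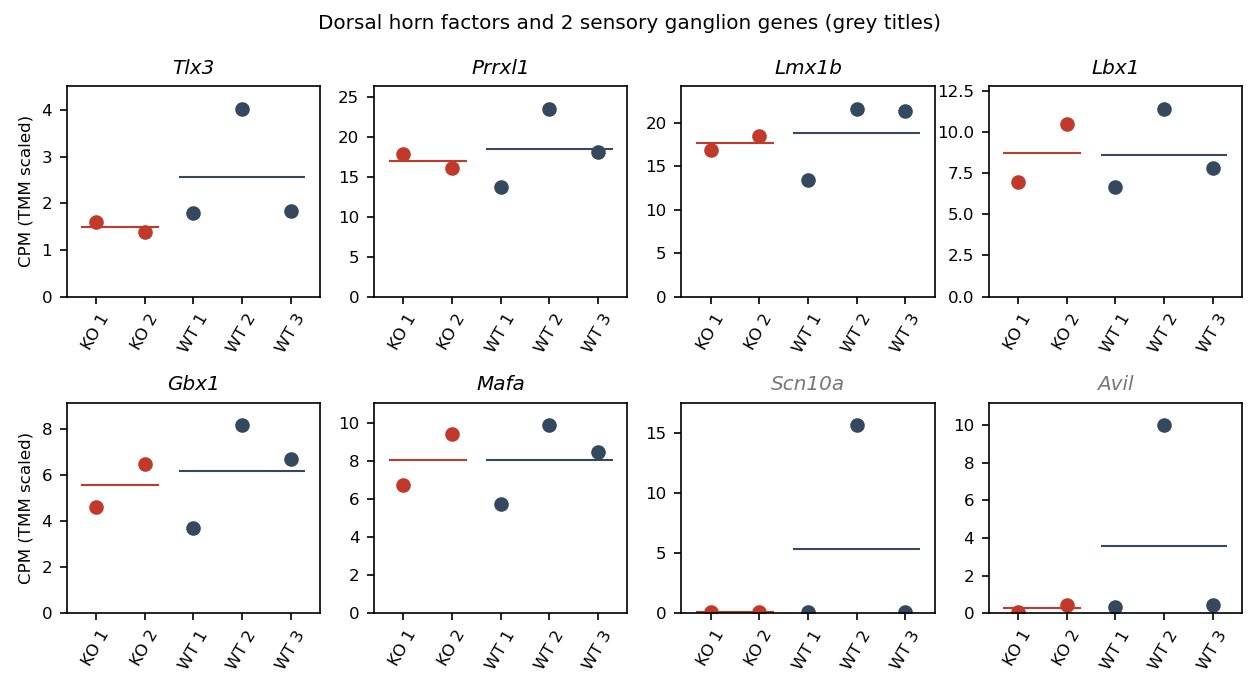
CPM, scaled by TMM factors, of 6 dorsal horn factors and of the sensory ganglion genes Scn10a and Avil in each library; points are libraries and lines are group means, KO in red and WT in dark blue. Scn10a and Avil are near 0 in every library but WT replicate 2. The 6 factors (Tlx3, Prrxl1, Lmx1b, Lbx1, Gbx1 and Mafa) were chosen for display after their values were seen. All are highest in WT replicate 2, so this shared library is no separate result. Of the dorsal factors not shown, Bhlhe22 was highest there too. Pax2, Pax8, Tfap2b and Rorb were highest in KO replicate 2, and Rora and Maf in WT replicate 3.

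The laminar factors mark particular layers of the dorsal horn, and all 5 had fitted log2 fold changes at or below 0, from −0.12 to −0.00015, with 0 passing. Rora, an orphan nuclear receptor of touch-related interneurons, had 72.4 and 66.6 CPM in KO and 70.6, 73.6 and 75.4 CPM in WT. The groups overlapped within a 1.13-fold range, and the log2 fold change was −0.07 (SE 0.07). Maf, a leucine zipper factor of the deeper dorsal laminae, had 34.0 and 38.1 CPM in KO and 35.4, 40.0 and 41.7 CPM in WT, a log2 fold change of −0.12 with SE 0.09 (adjusted p = 0.785, edgeR). Its relative Mafa spread more, with 6.75 and 9.44 CPM in KO and 5.77, 9.91 and 8.50 CPM in WT, so that the group means of 8.09 and 8.06 CPM were alike while libraries within each group were not. Rorb, whose inhibitory neurons gate sensory input, stood at −0.07 (SE 0.11), and Bhlhe22, a bHLH factor of itch-limiting dorsal neurons, stood at −0.11 (SE 0.18). Without WT replicate 2, Mafa and Bhlhe22 turned positive, at 0.18 and 0.03.

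Birth-order factors are shared across cardinal classes and divide early-born from late-born neurons: Onecut1 and Onecut2 mark the early ones, Zfhx3 and Zfhx4 follow, and Nfia, Nfib, Neurod2 and Prox1 mark the later, locally projecting ones. This was the only class of the 7 in which WT replicate 2 had a class mean below that of both KO libraries and of WT replicate 1. Prox1, a homeodomain factor that glia of the oligodendrocyte lineage also make, had 54.8 and 51.7 CPM in KO and 52.7, 41.9 and 46.0 CPM in WT. KO replicate 1 was highest, WT replicate 1 lay between the KO libraries, and the log2 fold change was 0.19 (SE 0.09; adjusted p = 0.707, edgeR). Nfia, a nuclear factor I gene also strong in astrocytes, had 66.1 and 62.4 CPM in KO and 68.3, 59.5 and 56.5 CPM in WT, a log2 fold change of 0.06 (SE 0.09). Nfib, a relative of Nfia, stood at 0.08 (SE 0.08). The 12 astrocyte genes summed to 6952 and 6794 CPM in KO and 7317, 6559 and 7455 CPM in WT, and the 12 oligodendrocyte genes to 32961 and 32651 CPM in KO and 36971, 31483 and 34652 CPM in WT. The 12 genes of oligodendrocyte precursors summed to 864.5 and 832.9 CPM in KO and 904.8, 913.2 and 885.8 CPM in WT. Of them 8 were negative, 4 positive and 0 passed in edgeR. At an unadjusted p under 0.05 edgeR had 5 of the 12, all negative, against 4.07% of all genes lower. KO and WT did not overlap for 6 on the lower side and 1 on the higher, against 12% and 12.9% of all genes. Of the 12 precursor genes DESeq2 called 1, Gpr17 (adjusted p = 1.36e-05, against 0.0603 in edgeR). Gpr17 was lower in KO, at 39.9 and 48.8 CPM against 67.3, 69.5 and 67.3 CPM in WT. DESeq2 also called 1 of the 12 astrocyte genes, Gjb6 (adjusted p = 0.0150), and 0 of the 12 oligodendrocyte genes, against 0.299% of all genes. Gjb6 was lower in KO and did not pass in edgeR (adjusted p = 0.176). The part of glia in these values was not tested. Zfhx4 was the steadiest of the class, between 37.4 and 40.7 CPM in every library, with a log2 fold change of 0.01 (SE 0.08). Zfhx3, carried by long-range projecting neurons, stood at 0.14 (SE 0.12), Onecut2 at 0.16 (SE 0.19) and Neurod2 at −0.07 (SE 0.22). Without WT replicate 2, Onecut2 stood at 0.05 (SE 0.20) and Neurod2 at 0.08 (SE 0.24). Onecut1 had 4 and 3 counts in KO and 4, 6 and 0 counts in WT, and 2171 of its exonic bases are shared with another gene on the same strand, so its counts are uncertain.

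Ventral inhibitory factors cover V1 neurons (En1, Foxp1, Foxp2, Sp8), V2b neurons (Gata2, Gata3, Tal1) and the dI6 class (Dmrt3, Wt1). Foxp1, which marks a V1 clade and limb motor neurons, had 24.5 and 22.2 CPM in KO and 23.9, 25.4 and 24.4 CPM in WT, a log2 fold change of −0.07 (SE 0.09). Foxp2 had 7.73 and 7.44 CPM in KO and 6.01, 7.20 and 6.53 CPM in WT, with both KO values above all WT values and a log2 fold change of 0.20 with SE 0.15 (adjusted p = 0.780, edgeR). En1, the defining V1 gene, overlapped widely at 1.66 and 1.38 CPM in KO and 1.90, 1.58 and 0.739 CPM in WT. Sp8, of another V1 clade, had 7 and 13 counts in KO and 20, 17 and 13 counts in WT, and its log2 fold change of −0.61 (SE 0.43) stood at −1.14 when KO replicate 2 was left out and at −0.23 when KO replicate 1 was.

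Gata2, the zinc finger factor that turns V2 precursors towards V2b, had 6.38 and 4.31 CPM in KO and 4.28, 5.01 and 5.48 CPM in WT. Its partner Tal1 had 4.78 and 3.06 CPM in KO and 3.99, 3.98 and 3.32 CPM in WT. KO replicate 1 was the highest library for both, the groups overlapped, and the log2 fold changes were 0.12 (SE 0.21) and 0.06 (SE 0.24). Both genes also work in endothelial and blood cells. The 12 endothelial genes summed to 596.8 and 402.8 CPM in KO and to 462.2, 584.6 and 556.5 CPM in WT, highest in KO replicate 1 as well, and none of them was at 0 in any library. DESeq2 called 1 of the 12, Slc2a1 (adjusted p = 0.00150, against 0.270 in edgeR). Slc2a1 was lower in KO, at 160.0 and 139.7 CPM against 187.0, 236.8 and 197.1 CPM in WT. The 10 genes of red blood cells and mast cells summed to 260.9 and 367.6 CPM in KO and to 295.4, 379.4 and 266.5 CPM in WT, lowest in KO replicate 1. Most of that was globin RNA, with Hbb-bs between 128.8 and 190.1 CPM. The part of vessel and blood cells was not tested. Gata3, which is also a V2b gene, went the other way between the KO libraries, with 8 and 18 counts in KO and 15, 18 and 11 counts in WT. Dmrt3, a factor of commissural dI6 neurons tied to gait, had 17 and 16 counts in KO and 13, 18 and 17 counts in WT. Wt1, a zinc finger factor of another dI6 subset, had 2 and 2 counts in KO and 11, 6 and 7 counts in WT. The groups did not overlap for Wt1, but it was below the count filter and its counts are few (DESeq2, unadjusted p = 0.109).

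Ventral excitatory factors mark V0 neurons that cross the midline (Evx1, Evx2), V2a and related neurons (Shox2, Sox14, Sox21) and V3 neurons (Sim1). Sox21, a repressor of the SoxB group, had 5.27 and 6.50 CPM in KO and 5.95, 7.10 and 6.16 CPM in WT, a log2 fold change of −0.12 (SE 0.18). Shox2, a homeodomain factor of rhythm-related excitatory neurons, split the KO group, with 4.05 and 1.94 CPM in KO and 3.99, 3.17 and 2.83 CPM in WT. KO replicate 2 was the low library, and the log2 fold change of −0.15 (SE 0.31) became 0.28 without it and −0.78 without KO replicate 1. Shox2, with 272 counts in all, shares 153 exonic bases with Rsrc1 on the opposite strand, which had 5530 counts. The Shox2 counts are therefore uncertain while the strand setting is not known. Sox14 had 10 and 10 counts in KO and 6, 13 and 15 counts in WT, and Sim1 had 6 and 3 counts in KO and 4, 2 and 2 counts in WT.

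The paralogues Evx1 and Evx2, homeodomain genes beside the HoxA and HoxD clusters, stood on opposite sides. The windows ahead of their start sites are shown in the same form as above, to set the pair side by side.
Evx1 (chr6:52313248-52313487, plus strand): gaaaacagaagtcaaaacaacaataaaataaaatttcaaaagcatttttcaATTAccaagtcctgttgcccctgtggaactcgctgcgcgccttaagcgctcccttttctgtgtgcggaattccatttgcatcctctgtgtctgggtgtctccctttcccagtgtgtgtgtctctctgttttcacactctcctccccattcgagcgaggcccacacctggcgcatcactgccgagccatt
Evx2 (chr2:74659568-74659807, minus strand): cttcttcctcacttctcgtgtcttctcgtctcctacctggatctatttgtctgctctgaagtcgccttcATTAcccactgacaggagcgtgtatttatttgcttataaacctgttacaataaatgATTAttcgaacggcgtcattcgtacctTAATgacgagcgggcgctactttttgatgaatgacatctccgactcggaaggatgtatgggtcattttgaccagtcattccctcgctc
The Evx1 window held 1 homeodomain core, a number that 54.2% of all windows reach, and the Evx2 window held 3, which 16.7% reach; CAGCTG was in neither. Evx1 (chromosome 6, 52313498 to 52318378) had 13 and 14 counts in KO and 25, 34 and 12 counts in WT, or 0.797 and 0.875 CPM in KO and 1.49, 1.74 and 0.739 CPM in WT. WT replicate 3 lay below both KO libraries, and the log2 fold change was −0.67 (SE 0.42; adjusted p = 0.733, edgeR), or −0.41 (SE 0.46) without WT replicate 2. Evx2 (chromosome 2, 74652991 to 74659557) had 16 and 14 counts in KO and 8, 13 and 9 counts in WT, or 0.981 and 0.875 CPM in KO and 0.476, 0.664 and 0.554 CPM in WT. Both KO values were above all WT values, with a log2 fold change of 0.70 with SE 0.39 (adjusted p = 0.715, edgeR), but the counts are few, and Evx1 shares 73 exonic bases with its antisense gene. The difference between the paralogues was not tested.

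The broad neuronal factors had the highest summed level of the 7 classes, with 11 members, though the median member was higher in the dorsal excitatory and laminar classes (3.76 and 2.95 against 2.70 CPM per kb). Of the broad factors, 9 of 10 tested members had negative log2 fold changes, between −0.18 and −0.02, with Satb1 at 0.08 (SE 0.08) and 0 passing. Without WT replicate 2 the count was 6 of 10. Ebf3 had 75.2 and 81.8 CPM in KO and 68.7, 98.3 and 81.7 CPM in WT. The WT group held both the lowest and the highest library, and the log2 fold change was −0.08 (SE 0.12), or 0.06 (SE 0.09) without WT replicate 2. Pbx3 had 40.2 and 42.4 CPM in KO and 43.4, 44.0 and 43.6 CPM in WT. Its groups did not overlap, yet the log2 fold change was only −0.08 (SE 0.07; adjusted p = 0.802, edgeR). Ebf1 had 51.6 and 51.4 CPM in KO and 47.8, 64.6 and 62.7 CPM in WT, a log2 fold change of −0.18 with SE 0.11 (adjusted p = 0.740, edgeR), and Ebf2 had 25.7 and 25.9 CPM in KO and 18.6, 31.2 and 33.9 CPM in WT. Without WT replicate 1 the log2 fold changes of Ebf1, Ebf2 and Ebf3 were −0.31, −0.33 and −0.20. For Ebf1 and Ebf2, WT replicate 1 was low, the KO libraries were in the middle and WT replicates 2 and 3 were high.

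Markers of pericytes and meningeal fibroblasts followed that order in part. The 10 pericyte genes summed to 385.8 and 285.2 CPM in KO and 285.8, 421.3 and 440.5 CPM in WT, and the 12 meningeal genes to 1122 and 1161 CPM in KO and 1121, 1434 and 1752 CPM in WT. All 12 meningeal genes were on the negative side (median −0.42), 0 passing and none at 0 counts in any library. The part of these cells in the Ebf values was not tested. Among the remaining broad factors, the zinc finger genes Bcl11a (−0.02, SE 0.16) and Bcl11b (−0.08, SE 0.16) were highest in WT replicate 2 and turned positive without it, at 0.14 and 0.09. The TALE homeodomain genes Meis1 (−0.09, SE 0.09) and Meis2 (−0.07, SE 0.10) and the SoxD gene Sox5 (−0.06, SE 0.10) stayed negative without that library. Sp9 had 3 and 11 counts in KO and 6, 5 and 8 counts in WT.

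**Figure D4:**
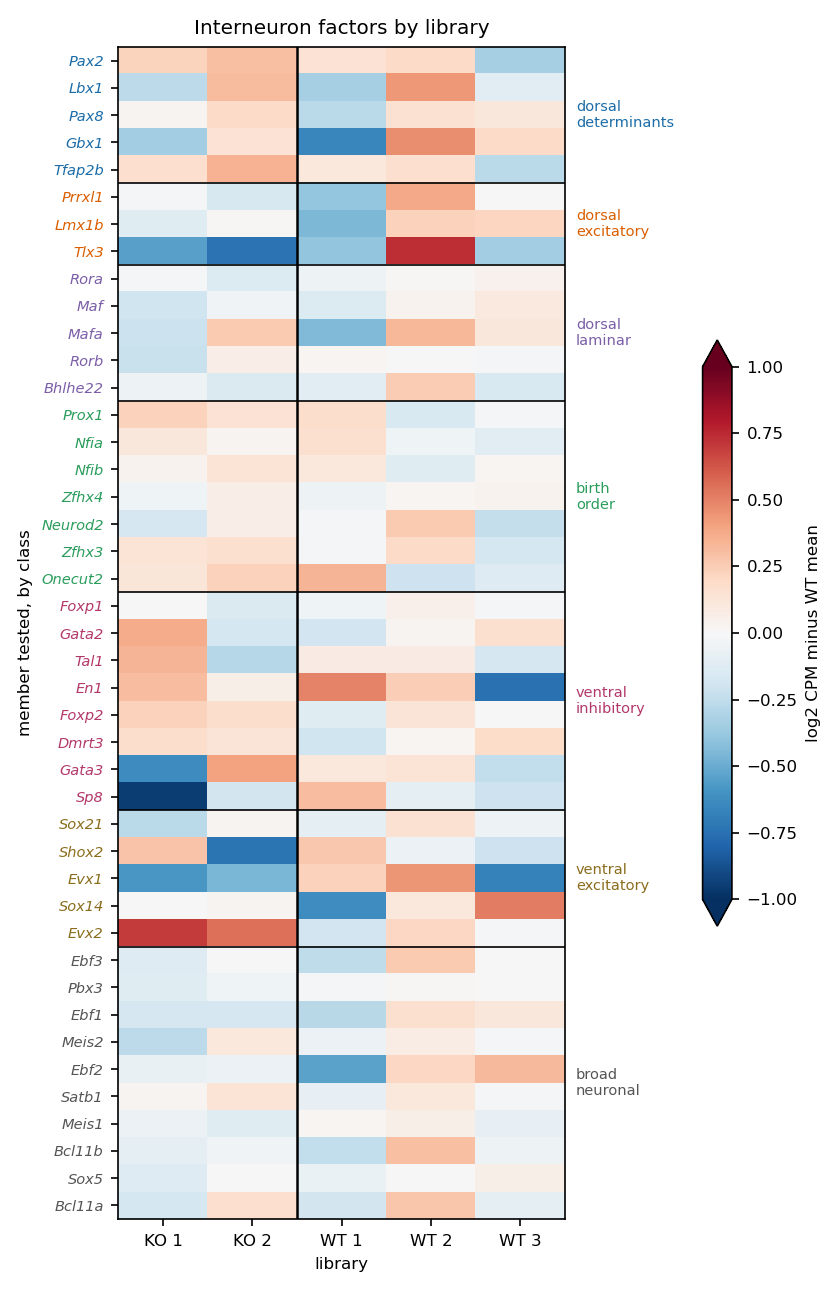
Log2 CPM of the 43 members tested in each library, minus the mean of the WT libraries for that gene, with KO columns on the left and members grouped by class; red is above and blue below the WT mean. WT replicate 2 is mainly red and WT replicate 1 mainly blue, while few rows separate KO from WT.

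Libraries of the same genotype also differed in these genes. WT replicate 2 was the highest of the 5 libraries for 18 of the 43 members (41.9%, against 17.9% of all genes tested), and WT replicate 1 was the lowest for 18 (41.9%, against 21.7%). Both held together for 9 members, 20.9% against 5.34% of all genes. The median log2 difference of WT replicate 2 minus WT replicate 1 was 0.21 over the members and 0.01 over all genes. It was 0.77 in the dorsal excitatory class, 0.43 in the dorsal determinants, 0.31 in the broad class and −0.20 in the birth-order class. Over the members, WT replicate 2 minus WT replicate 3 gave a median of 0.14 and WT replicate 3 minus WT replicate 1 gave 0.05, while the median fitted log2 fold change of KO over WT was −0.06. The WT range on the log2 scale exceeded the size of the fold change for 39 of the 43 members, 90.7% against 79.6% of all genes. KO replicate 2 minus KO replicate 1 gave a median of 0.08, with all 5 dorsal determinants and 2 of 8 ventral inhibitory factors positive. KO replicate 2 and WT replicate 3 were on the caudal side by Hox genes but were not matched in them. Hoxd10 had 7.31 CPM in KO replicate 2 and 0.431 CPM in WT replicate 3. Hoxa11, Hoxc11 and Hoxd11 had 1.88, 1.13 and 1.88 CPM in KO replicate 2 and 0 in WT replicate 3. In the classes of members these 2 libraries differed in some and were close in others. Their class means relative to the WT mean were 0.26 and −0.08 for the dorsal determinants, −0.30 and −0.04 for the dorsal excitatory factors, 0.12 and −0.09 for the birth-order factors and −0.0039 and −0.13 for the ventral inhibitory factors. They were 0.0032 and 0.02 for the laminar factors, −0.12 and −0.09 for the ventral excitatory factors and −0.0019 and 0.02 for the broad factors. With a caudal minus rostral Hox score as a covariate, 0 members and 0 genes passed, and 1 member turned sign. The WT coefficient of variation was over 2 times the counting error for 20 of the 43 members (46.5%, against 29.3% of all genes), such as Tlx3 (50.2% against 16.4%) and Ebf2 (29.2% against 4.66%). It was below the counting error for 12 (27.9%, against 31.3% of all genes), such as Rorb (1.29% against 5.31%).

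**Figure D5:**
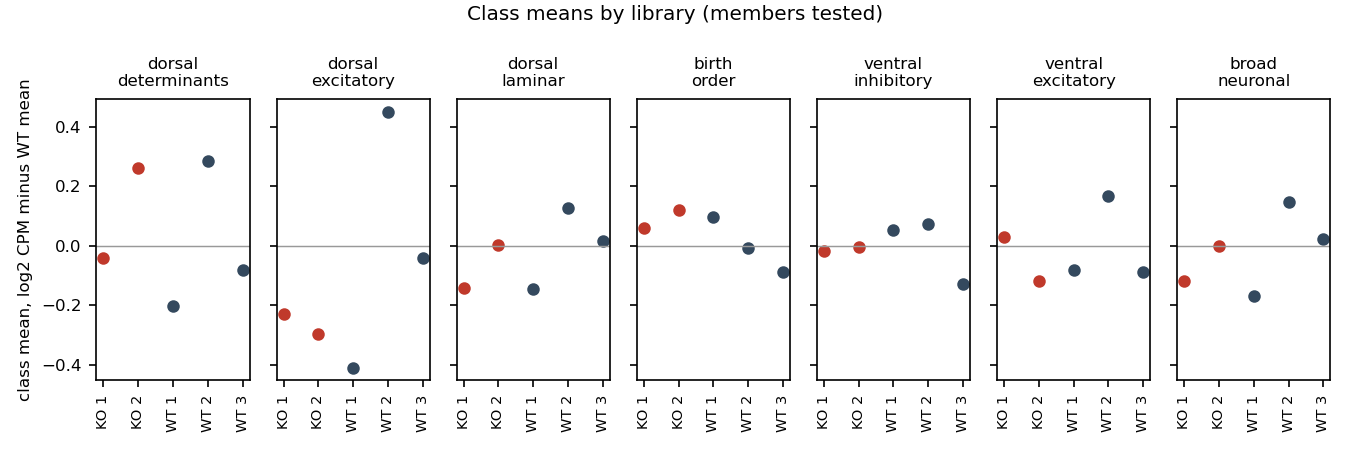
Mean over the tested members of each class of log2 CPM minus the WT mean, 1 point per library, KO in red and WT in dark blue. The dorsal excitatory class runs from −0.41 in WT replicate 1 to 0.45 in WT replicate 2, and the KO libraries lie between them in every class but birth order and the ventral classes.

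Other genes of interneuron identity gave the same count of calls. Of 54 further genes, nearly all transcription factors, 46 were tested, with 22 positive, 24 negative and 0 passing (median −0.03). Among those of smallest p were Skor2, a corepressor gene (−0.86, SE 0.27), Nkx2-2, which the oligodendrocyte precursors described above also make (0.31, SE 0.12), and Nfix (0.13, SE 0.06), with adjusted p-values from 0.520 to 0.692 in edgeR. Skor2 had 1.41 and 1.38 CPM in KO and 2.38, 2.40 and 2.83 CPM in WT, without overlap. Lhx1, the LIM-homeodomain gene of several interneuron classes that lies beside Lhx1os, had 5.83 and 5.13 CPM in KO and 4.94, 8.68 and 5.42 CPM in WT, with WT replicate 2 highest once more.

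Genes of transmitter synthesis, transport and reception were the next lists. In the inhibitory list 5 of 10 genes were positive, 5 negative and 0 passed (edgeR, adjusted p from 0.640). Glra1, a glycine receptor subunit, stood at 0.28 (SE 0.11), Slc32a1, the vesicular GABA and glycine transporter, at 0.18 (SE 0.09), and Glra2, another glycine receptor subunit, at −0.23 (SE 0.15). In the excitatory list 4 of 10 were positive, 6 negative and 0 passed (adjusted p from 0.646), with the glutamate receptor genes Gria2 at −0.17 (SE 0.07) and Grin1 at 0.14 (SE 0.07) and the vesicular glutamate transporters Slc17a6 at −0.09 (SE 0.06) and Slc17a8 at −0.46 (SE 0.39). Of 22 markers of interneuron subtypes, 11 were positive, 11 negative and 0 passed (adjusted p from 0.700). Calb1, a calcium-binding protein gene, stood at −0.15 (SE 0.08), Rspo3 at −0.26 (SE 0.19), Calb2 at 0.13 (SE 0.11) and Ret at 0.10 (SE 0.09).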

How the data were processed

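RNA was sequenced from 5 spinal cord libraries, 2 KO and 3 WT, prepared with a stranded mRNA kit per the labels' protocols. The authors deposited unnormalized read counts for each gene. The submitters' processing notes name STAR 2.5.2b, HTSeq, cutadapt and Trimmomatic, with GRCm38. Annotation release and strand setting: not given in the sources used here, so genes with an antisense partner are uncertain. Among the members these were Evx1, Prox1, Shox2, Sox21, Nfia and Sp9. Antisense partners of 6 counts or fewer lay opposite Sox5, Meis1, Maf, Ebf2, Pax8, Ebf3, Bcl11a, Gata3, Satb1 and Rora. On the same strand, Meis1 shares 1029 exonic bases with another gene, and Foxp1, Satb1 and Gata3 share fewer. Symbols, coordinates and exon lengths came from GENCODE M21, which matched 55230 of 55471 identifiers. The library descriptions carry different numbers, but no label says that the libraries came from separate litters; if they were not separate animals, p-values measure only spread between these samples. Every pair of libraries differed beyond sampling noise (chi-square per degree of freedom 4.17 to 8.16).

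Genes were kept by filterByExpr (minimum count 10), which left 16052, scaled by TMM and compared with the quasi-likelihood F test of edgeR 4.0.16 in R 4.3.3, without covariates, adjusted by Benjamini-Hochberg over all genes kept. CPM values use TMM-scaled library sizes; log2 CPM per library uses a prior count of 2. Standard errors come from the coefficient and the F statistic. The test was checked on simulated counts. Alternatives were DESeq2 1.42.0, limma-voom (limma 3.58.1), other scalings and filters, robust dispersion, a replicate block, a Hox covariate and each library left out.

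The members and lists were chosen with earlier results of these data known. Values per library are printed for the 2 most abundant members (per kilobase) and the member of smallest p in each class, and for members at 1 CPM or more whose groups do not overlap. From the other lists the 4 genes of smallest p are named, except for some that are not reported here. Gbx1, Mafa, Evx1, En1, Tal1, Ebf2, Wt1 and the sensory ganglion, Hox, globin and Gpr17 values were singled out after they were seen, as were members given by counts alone. With 1 KO library left, it is assumed to vary like the WT libraries.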

Additional observations from a re-analysis of the deposited data

How the results depend on the processing

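No member passed under any alternative run: other size factors, scaling by pan-neuronal genes, no filter, a minimum count of 30, robust dispersion, limma-voom, DESeq2, the replicate block, the Hox covariate, an adjusted p under 0.1, and each library left out. The members' median log2 fold change lay between −0.15 (pan-neuronal scaling) and 0.04 (without WT replicate 2), and from −0.09 to 0.04 over the libraries left out. Members on the positive side were 17, against 11 under pan-neuronal scaling, where the median of all genes was −0.08, and 14 to 27 with a library left out. Over all genes the 3 calls became 6 with DESeq2 size factors, 26 with pan-neuronal scaling, 96 without the filter, 12 with robust dispersion, 1 with limma-voom, 42 with DESeq2, 25 with the replicate block, 0 with the Hox covariate, 15 at an adjusted p under 0.1, and 0 to 58 with a library left out (58 without WT replicate 1, 1 without WT replicate 2, 10 without WT replicate 3, 0 without KO replicate 1, 3 without KO replicate 2). Members at an unadjusted p under 0.05 in edgeR were 5 without WT replicate 1 (11.6%, against 9.28% of all genes), 2 without WT replicate 3 (4.65%, against 4.9%), 2 under the replicate block (4.65%, against 5.87%), and at most 1 under the others. The 5 without WT replicate 1 were Ebf1, Ebf2, Tlx3 and Lmx1b, lower in KO, and Prox1, higher in KO. The smallest adjusted p among them was 0.171, for Ebf1 (edgeR). The cause of these changes between runs was not tested. Lhx1os stayed lower throughout and passed with DESeq2 size factors (−2.14), pan-neuronal scaling (−2.22), no filter (−2.14), robust dispersion (−2.13), DESeq2 (−2.15) and the replicate block (−2.16), and stood between −2.25 and −2.03 with a library left out, passing only without WT replicate 1 (−2.12). Same-numbered libraries correlated by 0.058 and 0.0020 in their deviations from the group means. With 2 KO libraries the KO deviations mirror each other, so these values cannot decide whether the numbers are pairs. The numbers were not taken as pairs, as no label states a pairing. Under the block 7 members turned sign, with 0 passing. Depth limits the result for members under 100 counts, whose intervals reach past 2-fold in some cases.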
